A study of Capra hircus with 36 samples.

Results

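The downstream cluster of the imprinted DLK1-DIO3 domain is the run of miRNA genes from miR-379 to miR-656. Its members were taken by name from the deposited count table, as every mature miRNA whose number belongs to one of 39 hairpin numbers of the cluster. They came to 90 of the 1391 mature miRNAs in the table, or 6.47%. As background, the domain is imprinted: DLK1 and RTL1 are expressed from the paternal chromosome, and the noncoding RNAs, among them this cluster, from the maternal chromosome. The cluster is thought to be made as part of long transcripts that are processed into many miRNAs, and it is best known from the placenta, the embryo, the brain and skeletal muscle. In sheep, a mutation in the same domain gives the callipyge type of muscle overgrowth.

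Small RNA was sequenced from 6 goats. From each goat the spleen, lung, liver, kidney and heart were taken, and the longissimus as skeletal muscle. The high-altitude group was 3 Tibetan goats living at about 3000 m, and the low-altitude group was 3 Chuandong White goats living at about 600 m. All were adult females of about 3 years. The study lists the Tibetan goats as lighter and kept by stocking or nomadism, and the Chuandong White goats as reared at home. Breed, altitude, rearing and body weight go together in this design, so their effects cannot be told apart. Each of the 12 groups of tissue and altitude had 3 libraries. The libraries held from 7108635 to 14407748 miRNA counts, and 3 counts amounted to 0.208 to 0.422 CPM (counts scaled to a library total of 1000000).

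The tissue labels were checked against marker miRNAs. The cardiomyocyte list (miR-208a, miR-208b and miR-499) summed to between 17104 and 24101 CPM in heart and to at most 4836 CPM elsewhere. The skeletal muscle list (miR-1, miR-133a, miR-133b and miR-206) reached 361840 to 553994 CPM in muscle, where miR-133a-3p and miR-133b-5p have equal counts and both enter the sum. It ran from 183285 to 394502 CPM in heart and to at most 10035 CPM in the other tissues. The liver marker miR-122 had 6201 to 179959 CPM in liver and at most 209 CPM elsewhere. The ciliated cell list (miR-34b, miR-34c and miR-449a) had 2997 to 12910 CPM in lung and at most 56.4 CPM elsewhere. The leukocyte list (miR-142, miR-150 and miR-223) had 15232 to 66847 CPM in spleen, beside 785 to 22767 CPM elsewhere. The epithelial list (miR-200 family and miR-141) had 6465 to 13146 CPM in lung and 1477 to 8139.5 CPM in kidney, against at most 77.2 CPM in heart, muscle and spleen. Of the kidney tubule list, miR-192 had no entry, and the sum of miR-194 and miR-196a was higher in liver (11235 to 22931 CPM) than in kidney (1293 to 4774 CPM). Of these, miR-196a-5p had 72.7 to 242 CPM in kidney and at most 8.70 CPM in liver and lung, but 215 to 322 CPM in muscle. The remaining lists were found in every tissue, with miR-126 (endothelium) at 5205 to 38674 CPM, the mesenchyme list at 2128 to 25710 CPM and the smooth muscle list at 17681 to 568728 CPM. The erythroid list, in which miR-451 had no entry and conserve-miR-486-5p was the most abundant form, ran from 0 to 53844 CPM. Its highest values were in heart and muscle. Every heart, liver and lung library had more of its own list than any library of another tissue. Muscle overlapped with heart in the skeletal muscle list but not in the cardiomyocyte list, spleen overlapped with liver in the leukocyte list, and no list of cell markers had its highest mean in kidney, although the highest library of the mesenchyme list was high-altitude kidney of goat 2.

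Of the 39 hairpin numbers, 35 were found, and miR-539, miR-654, miR-889 and miR-3956 had no entry. The members were 38 mature forms from the 5p arm of a hairpin and 52 from the 3p arm. The authors had matched 66 of them to goat miRNAs, and 24, which carry the prefix conserve in the table, to miRNAs of other mammals. The 66 goat entries held 99.2% of the counts of the cluster. The RefSeq annotation of the ARS1.2 goat assembly names 38 miRNA genes in a row from MIR379 to MIR656, and each of the 38 had a member in the table. The authors had mapped to ARS1, so the annotation served for names and order alone.

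The members were unequal in depth. Reads in all 36 libraries were found for 22 members, and a single library held all the reads of 6. In 15 members, or 16.7%, the largest count in any library stayed under 10. A mean of at least 1 CPM over the 36 libraries was reached by 50 members, and a mean of at least 10 CPM by 24. The number of members with reads ran from 39 to 73 in a library, with a median of 59. All 90 members were kept in the tests, which had no filter beyond the authors' own.

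Several members differ from another by a letter only (miR-376a to miR-376e, miR-411a and miR-411b, miR-487a and miR-487b, miR-154a and miR-154b, miR-323a and miR-323b, miR-329a and miR-329b). Others are listed both as a goat entry and with the prefix conserve, such as miR-496-3p, miR-487a-3p and miR-323b-3p. Reads may be split or moved between such near-identical forms, so the values of each are uncertain. A count of 0 beside a count of at least 100 in the same group of 3 libraries occurred in 17 pairs of member and group, over 10 members. That was 11.1% of the members, beside 12.7% of all mature miRNAs.

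The cluster held 0.476% of all counts, and a few members carried most of it. miR-411a-5p took 46.4% of the counts of the cluster, with a mean of 2184 CPM over the 36 libraries, a lowest value of 228 CPM and a highest of 15762 CPM. miR-381-3p took 20.04%, with a median of 51.6 CPM and a highest value of 25949 CPM. Of its 362610 counts, 320732 were in low-altitude muscle of goat 3, so its share and its second place rested on that library. miR-379-5p followed with 5.33% and a median of 94.8 CPM, and miR-3958-3p with 4.30% and a median of 87.9 CPM. These leading members did not have the same spread: in miR-381-3p 1 library held most of the reads, whereas miR-411a-5p was abundant in every library. The next were miR-3959-5p (2.82%), miR-369-3p (2.44%), miR-409-3p (2.41%), miR-380-3p (2.40%), miR-409-5p (1.95%) and miR-410-3p (1.51%). The 10 together held 89.6% of the counts of the cluster.

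miR-411a-5p was the most abundant member in 34 of 36 libraries. In high-altitude lung of goat 3, miR-379-5p came first, with 45.6% of the counts of the cluster against 41.1% for miR-411a-5p. In low-altitude muscle of goat 3, miR-381-3p came first, with 50.1% against 30.4%. Within tissues, the mean share of miR-411a-5p lay between 47.5% ± 15.7 in muscle and 63.8% ± 5.38 in heart (SD, n = 6). miR-381-3p took 25.8% ± 16.4 of the cluster in muscle and between 1.19% ± 0.324 and 1.83% ± 0.301 in the other 5 tissues. miR-379-5p took 19.4% ± 15.9 in lung and 1.13% ± 0.974 in spleen. Abundance did not follow the order on the chromosome: miR-379 and miR-411a are the first genes of the run, whereas miR-381 is number 20, miR-409 number 33 and miR-410 number 36.

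**Figure D1:**
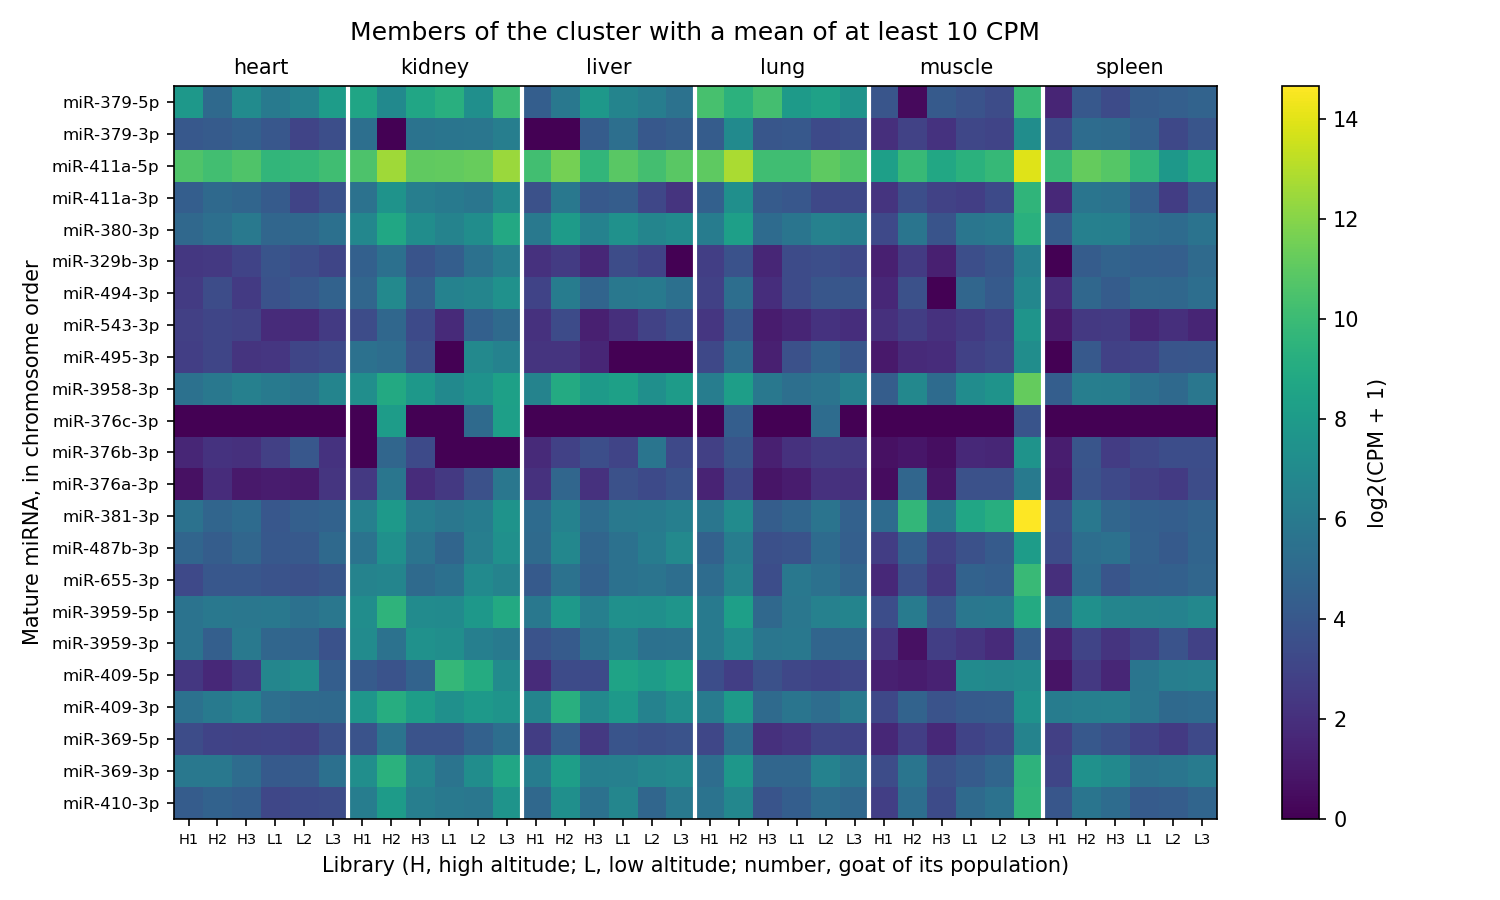
Heat map of log2(CPM + 1) in the 36 libraries (columns, by tissue, altitude and goat) for the 23 members with a mean of at least 10 CPM and a place in the RefSeq order (from top to bottom along the chromosome). Low-altitude muscle of goat 3 is bright in nearly every member, miR-409-5p is dim in high-altitude and bright in low-altitude libraries outside lung, and miR-376c-3p has reads in 6 libraries.

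Some libraries stood apart from the rest of their tissue, and many of the results that rest on them are given with and without them. In low-altitude muscle of goat 3, the cluster held 5.18% of all counts, against 0.0456% to 0.228% in the other 5 muscle libraries. Each of the 24 members with a mean of at least 10 CPM was higher there than in any other muscle library, and the median difference from the middle of the tissue was 4.49 on the log2 scale. For the 277 miRNAs outside the DLK1-DIO3 domain with a mean of at least 10 CPM, the same median was 0.09, and 15.2% of them lay more than 1 above. Over the median of the other muscle libraries, the excess ran from 5.63-fold for miR-3959-3p to 211-fold for miR-376b-3p, in the 23 members for which that median was above 0. miR-409-5p was the exception among the low-altitude muscles, since its 133 CPM there was near the 129 and 114 CPM of the other low-altitude goats. Its skeletal muscle list was within the range of the tissue (511286 CPM), but miR-1-3p had 57973 CPM against 1070.4 to 2736 CPM, and miR-206-3p 7759 CPM against 45.9 to 1080.1 CPM. miR-126 had 11603 CPM there, against 6206 to 7232 CPM in the other muscles, and the erythroid list 13769 CPM, against 14343 to 43097 CPM. The part of these differences in the results on the cluster was not tested.

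High-altitude lung of goat 2 stood apart to a lesser degree. The cluster held 1.05% of its counts, against 0.192% to 0.414% in the other lung libraries, and 20 of the 24 members were above every other lung library. The median difference from the middle of the tissue was 2.03 on the log2 scale, against 0.27 for the 277 other miRNAs. Exceptions were miR-409-5p, with 5.61 CPM against 6.64 to 11.5 CPM, conserve-miR-299-3p, with 0.677 CPM against 4.41 to 9.95 CPM, and miR-379-5p and miR-376c-3p, which were higher in another library. In the same library the erythroid list, led by conserve-miR-486-5p, had 0 CPM, against 5055 to 18759 CPM in the other lung libraries. A 0 beside at least 100 counts in the same group occurred in 12.7% of all mature miRNAs, so this 0 is uncertain. miR-126 had 38674 CPM, against 7543 to 26480 CPM. The ciliated cell list had 12910 CPM, against 2997 to 9517 CPM, the leukocyte list 14463 CPM, against 7676 to 11422 CPM, and the other imprinted loci 368.6 CPM, against 56.4 to 165 CPM. Whether these differences bear on the cluster was not tested.

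Kidney also held libraries with more of the cluster than their neighbours. The cluster share was 0.343%, 1.15% and 0.426% in the high-altitude kidneys and 0.505%, 0.517% and 1.07% in the low-altitude kidneys. The high values, of high goat 2 and low goat 3, were shared by other miRNAs, since the median difference of the 277 miRNAs outside the domain was 0.80 and 0.76 in these libraries, beside 1.49 and 1.34 for the members. With library sizes scaled by TMM over the 36 libraries, low goat 1 was instead the highest kidney at 0.92%, beside 0.757% in high goat 2 and 0.70% in low goat 3. Several lists were highest in high goat 2 and low goat 3. The mesenchyme list (3 of 3 names found, led by miR-199a-3p) had 6287, 25710 and 2793 CPM in the high-altitude kidneys and 2128, 4487 and 14912 CPM in the low-altitude kidneys. The epithelial list had 1754, 5564 and 1477 CPM against 2456, 2482 and 8139.5 CPM, the kidney tubule list 1743, 4042 and 1801 CPM against 1293, 2703 and 4774 CPM, and miR-126 7604, 13803 and 7007 CPM against 5205, 7212 and 13744 CPM. The erythroid list was lowest there, with 615, 89.6 and 758 CPM against 375, 505 and 363 CPM. The part of these lists in the kidney results was not tested.

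Over all 36 libraries, the cluster share ran from 0.0456% to 5.18%, with a median of 0.236%. Kidney had the highest median of the tissues, 0.511%, and spleen the lowest, 0.131%. Liver (median 0.328%) and lung (0.297%) lay between them, and heart (0.183%) and muscle (0.193%) near the lower end. The ranges of the tissues overlapped except that every kidney library (lowest 0.343%) lay above every heart (highest 0.233%) and every spleen library (highest 0.337%). Without low-altitude muscle of goat 3, the mean of muscle went from 0.985% ± 2.06 (SD, n = 6) to 0.146% ± 0.0848 (n = 5). Over the library size of the 36 libraries scaled by TMM (the TMM library size below), the medians were 0.637% in kidney, 0.310% in muscle, 0.272% in lung, 0.239% in heart, 0.234% in liver and 0.103% in spleen, so that the order of the middle tissues depended on the scale. In these bulk samples, fewer cells of a type and less RNA per cell cannot be told apart. Wilson 95% intervals of the single shares were at most 0.0124 percentage points to either side, and they cover counting error only.

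By altitude, the cluster share was 0.211% ± 0.0330 in high-altitude heart and 0.158% ± 0.0297 in low-altitude heart (SD, n = 3, as for the following). In lung it was 0.580% ± 0.412 and 0.249% ± 0.0633, and without goat 2 the high-altitude mean was 0.346%. In spleen it was 0.240% ± 0.110 and 0.114% ± 0.0309. In each of these 3 tissues the mean of the shares was higher at high altitude, and in each the groups overlapped. In heart, where same-numbered libraries correlated, the shares were 0.228%, 0.173% and 0.233% at high and 0.137%, 0.147% and 0.192% at low altitude. They were higher at high altitude for each goat number, but goats of the same number are different animals and not pairs. Over the TMM library size the 2 heart means were level, at 0.237% and 0.237%, and the share was higher at high altitude for goat 1 only. On that scale the high-altitude libraries lay wholly above in lung (means of 0.410% and 0.162%) and spleen (0.170% and 0.0878%), and wholly below in muscle. Liver, with 0.325% ± 0.226 and 0.351% ± 0.0667, and kidney, with 0.638% ± 0.441 and 0.699% ± 0.325, differed by less than the spread between goats. The liver mean rested on goat 2 and was 0.194% without it, and the kidney means were 0.385% without high goat 2 and 0.511% without low goat 3. The high-altitude muscles had 0.0456%, 0.228% and 0.0678%, the low-altitude muscles 0.168%, 0.219% and 5.18%. The low-altitude mean was 1.86% ± 2.88, but 0.193% without goat 3, and the high-altitude mean was 0.114% ± 0.0997, but 0.0567% without goat 2. A sum over members was not tested.

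**Figure D2:**
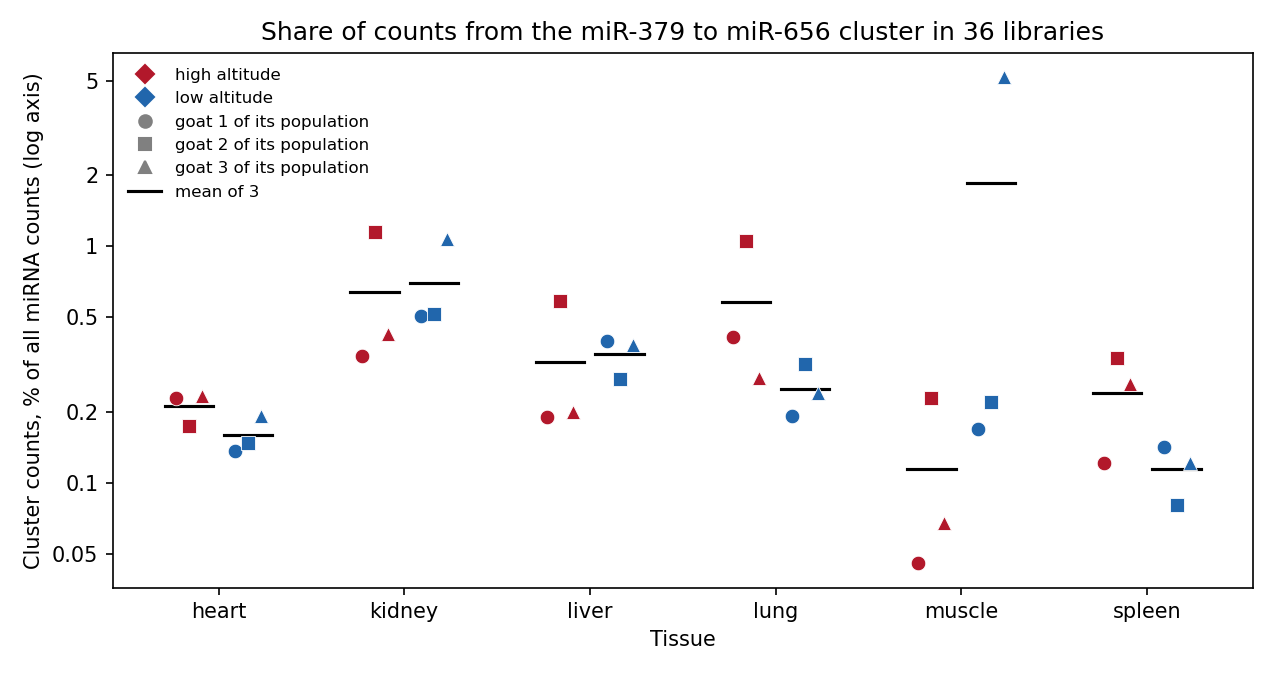
Share of the cluster in the miRNA counts of each library, in percent on a log axis, by tissue and altitude; each point is a library, its shape the goat of its population, and each bar the mean of 3. The 6 kidney libraries lie between 0.343% and 1.15%, and low-altitude muscle of goat 3 lies alone at 5.18%.

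The tissues were compared to see where the cluster is expressed, each against the other 5 in a single edgeR quasi-likelihood fit over the 12 groups. A member passed when its Benjamini-Hochberg adjusted p over all 1391 miRNAs was under 0.05 and its log2 fold change at least 1.5 in size. Kidney differed most. There 43 members were higher, or 47.8%, beside 10.1% of all miRNAs, and 1 was lower, beside 2.30%. The median log2 fold change over the other tissues was 1.69 for the members, or 1.68 with the 12 members that were at 0 throughout kidney or the other tissues set at their bound, and -0.38 for all miRNAs. With low-altitude muscle of goat 3 left out, 50 members were higher (beside 11.3% of all miRNAs) and 1 lower (beside 1.94%), and 44 members passed in both. Over all libraries 44 members passed, higher or lower (beside 12.4% of all miRNAs). With the goat as a block 34 passed (10.9%), in DESeq2 32 (12.6%) and with other size factors 36 (11.4%). Leaving out a goat gave 34 to 47 (10.4% to 12.1%). The members that passed came from both ends of the cluster, from miR-379-5p to miR-656-3p.

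Among the abundant members, miR-409-3p had 208, 558 and 285 CPM in the high-altitude kidneys and 166, 231 and 191 CPM in the low-altitude kidneys, against a mean of 90.4 CPM in the other tissues. All 6 kidneys lay above that mean, and the log2 fold change was 2.12 (SE 0.296, edgeR adjusted p = 2.26e-06). miR-379-5p had 393, 122 and 406 CPM at high and 618, 159.6 and 1002 CPM at low altitude in kidney, against a mean of 216 CPM elsewhere. Of the 6 kidneys 4 lay above that mean, and the log2 fold change was 2.55 (SE 0.562, edgeR adjusted p = 0.00113). Other members with large differences in kidney were miR-495-3p (3.34), conserve-miR-496-5p (4.07) and conserve-miR-496-3p (4.02). miR-411a-5p, the most abundant member, did not pass: its log2 fold change of 1.20 (edgeR adjusted p = 0.00621) was under the minimum, but without low-altitude muscle of goat 3 it was 1.55 and passed.

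The largest fold changes in kidney were those of the miR-376 forms, whose reads may be divided between letters. miR-376e-3p had 97, 2676 and 224 counts in the high-altitude kidneys and 114, 0 and 263 in the low-altitude kidneys, and 0 in every library of the other 5 tissues. Against a floor of 3 counts per library it was at least 196-fold higher in kidney, and at least 45.5-fold higher without high goat 2. miR-376c-3p had 0, 2597 and 0 counts at high and 0, 361 and 3169 at low altitude in kidney, and its reads elsewhere were in 2 lung libraries and 1 muscle library. Its fitted log2 fold change was 9.90 (SE 1.63, edgeR adjusted p = 0.000340), and without high goat 2 it was 4.59 and did not pass (adjusted p = 1, range over all alternatives 4.35e-06 to 1). miR-376b-3p was the member lower in kidney, with 0, 266 and 97 counts at high and 0 in all 3 low-altitude kidneys (log2 fold change -4.24, edgeR adjusted p = 0.00379). With the goat as a block it was -0.74 and did not pass. These fitted values have no floor for the low-altitude kidneys at 0. The 266 counts of high goat 2 were above every library of the other tissues, except low-altitude liver of goat 2 (359) and low-altitude muscle of goat 3 (2249). The 3p entries of miR-376 summed to 15.1, 657 and 34.0 CPM in the high-altitude kidneys and 17.6, 48.2 and 403.5 CPM in the low-altitude kidneys. The 2 high sums were those of the libraries with the highest cluster share.

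In muscle, 10 members were higher than in the other tissues (beside 9.63% of all miRNAs) and 2 lower (beside 4.10%). This rested on low-altitude muscle of goat 3: without that library 2 were higher (beside 7.33%) and 8 lower (beside 5.97%), 4 members passed in both, and the median log2 fold change of the members went from 0.34 to -0.70. With library size as the only scaling the median was -0.31, so its sign also turned on the scaling. With all tissues of high goat 2 left out, 6 members passed, beside 10.7% of all miRNAs. miR-381-3p was higher with and without the library. It had 33.3, 851 and 63.3 CPM in the high-altitude muscles and 403.5, 584 and 25949 CPM in the low-altitude muscles, against a mean of 56.6 CPM in the other tissues. Of the 6 values, 5 lay above that mean, and the other tissues' highest value was 234 CPM. The log2 fold change was 5.77 (SE 0.395, edgeR adjusted p = 7.71e-13), and without low-altitude muscle of goat 3 it was 3.74 (adjusted p = 5.53e-10, range over all alternatives 8.65e-34 to 1.32e-08). conserve-miR-299-5p had 1.53, 2.59 and 1.57 CPM at high and 2.70, 5.10 and 130 CPM at low altitude, and its log2 fold change of 3.00 (SE 0.521, edgeR adjusted p = 5.20e-05) was 1.15 without that library and then did not pass (adjusted p = 0.251, range over all alternatives 1.04e-06 to 0.251). miR-379-5p had 13.4, 0.314 and 17.1 CPM at high and 12.3, 9.82 and 959 CPM at low altitude, and its log2 fold change went from -0.38 to -2.97 without that library, where it passed as lower (adjusted p = 0.00552, range over all alternatives 0.00552 to 1).

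In lung, 2 members were higher (beside 8.91% of all miRNAs) and 5 lower (beside 3.52%). miR-379-5p had 1331, 674 and 1263 CPM in the high-altitude lungs and 258, 338 and 186 CPM in the low-altitude lungs, against a mean of 171 CPM in the other tissues. All 6 lungs lay above that mean, and the log2 fold change was 2.24 (SE 0.569, edgeR adjusted p = 0.00567). The other higher member, miR-376c-3p, had reads in 2 of 6 lungs only, 203 and 378 counts. The lower members were miR-381-3p (-1.59), miR-409-5p (-2.21), miR-376a-3p (-2.11), conserve-miR-3957-3p (-2.58) and miR-377-3p (-3.70), named here after their values were seen. Without low-altitude muscle of goat 3, 4 members were higher (beside 10.1% of all miRNAs) and 1 lower (beside 3.16%). With the goat as a block 3 members passed (beside 10.2%), and miR-409-5p, at -0.63, was not among them (adjusted p = 0.796, range over all alternatives 4.78e-06 to 0.796). Leaving out a goat gave 3 members without high goat 1, high goat 3 or low goat 3, 4 without low goat 1 and 2 without low goat 2, beside 8.99% to 10.4% of all miRNAs.

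Spleen had no higher member (beside 10.8% of all miRNAs) and 10 lower (11.1% of the members, beside 4.10%). miR-379-5p had 1.91, 15.7 and 9.18 CPM in the high-altitude spleens and 18.3, 20.5 and 24.0 CPM in the low-altitude spleens, against a mean of 303 CPM in the other tissues. All 6 spleens lay below that mean (log2 fold change -4.22, SE 0.904, edgeR adjusted p = 0.000858). miR-381-3p (-2.38), miR-3958-3p (-2.05), miR-3959-3p (-3.02) and miR-409-5p (-1.52) were among the other lower members. Leaving out high goat 1 gave 6 lower members (beside 3.52% of all miRNAs), and leaving out low-altitude muscle of goat 3 gave 8 (beside 3.81%). High-altitude spleen of goat 1 stood apart: 17 of the 24 members with a mean of at least 10 CPM lay more than 1 below the middle of the tissue on the log2 scale, with a median of -1.43, beside -0.20 for the 277 other miRNAs. Its leukocyte list had 15232 CPM, against 34708 to 66847 CPM in the other spleens, and its erythroid list 11989 CPM, against 837 to 7646 CPM. The mesenchyme list had 6067 CPM, against 8386 to 18542 CPM, and miR-126 6359 CPM, against 7350 to 12518 CPM. Whether these differences bear on the cluster was not tested.

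Liver had 2 higher members (beside 8.99% of all miRNAs) and 2 lower (beside 3.09%), and with the goat as a block 0 passed (beside 8.77%), with 8 members at an unadjusted p under 0.05 in that edgeR fit (beside 21.4%) and 6 past the thresholds in DESeq2 without the block, beside 10.4% of all miRNAs. The members named in this paragraph include some chosen after their values were seen, namely miR-329b-3p, conserve-miR-487a-3p and miR-487a-3p. miR-495-3p was lower (log2 fold change -6.23, edgeR adjusted p = 0.000360), with 29, 34 and 18 counts in the high-altitude livers and 0 in the low-altitude livers. miR-329b-3p was lower by a log2 fold change of -1.94. conserve-miR-487a-3p was higher, at 2.03, while its goat entry miR-487a-3p did not pass. Also higher was conserve-miR-323-3p, with 702, 0 and 0 counts at high and 21, 11 and 0 at low altitude. The latter rested on 1 liver: its log2 fold change was 4.97, but -0.69 without high goat 1. Leaving out high goat 1 or low goat 2 gave 2 members (beside 8.70% and 9.49% of all miRNAs), and leaving out low-altitude muscle of goat 3 gave 5 higher (beside 9.71%) and 1 lower (beside 2.66%).

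Heart had no higher member (beside 6.61% of all miRNAs) and 3 lower (beside 3.52%). miR-376d-3p and miR-154b-3p, named here after their values were seen, had 0 counts in the 6 hearts. Against 3 counts per heart library, the mean of the other tissues was at least 10.6-fold higher for miR-376d-3p (6.97-fold without high-altitude kidney of goat 2) and at least 1.35-fold higher for miR-154b-3p. miR-410-3p had 18.4, 23.1 and 20.1 CPM in the high-altitude hearts and 7.70, 8.63 and 9.80 CPM in the low-altitude hearts, against a mean of 81.9 CPM in the other tissues (log2 fold change -1.51, edgeR adjusted p = 0.0226). All 6 hearts lay below that mean. Without low-altitude muscle of goat 3 it was -1.28, under the minimum. Leaving out any goat gave 1 lower member (beside 2.66% to 3.02% of all miRNAs), except that leaving out high goat 2 gave 0 (beside 2.73%), with 4 members at an unadjusted p under 0.05 (beside 16.8%), and DESeq2 gave 8 over all libraries, beside 12.2% of all miRNAs.

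The miRNAs at the upstream end of the domain, which include those antisense to RTL1, served as neighbours of the cluster. Of 11 names 6 were found, with 14 mature forms, led by miR-127-3p. Their sum was 13410, 15052 and 13537 CPM in the high-altitude kidneys and 12189, 13385 and 17579 CPM in the low-altitude kidneys, and 20229.8 CPM in low-altitude muscle of goat 3, against 727 to 2641 CPM in the other muscles. The library with the most of the downstream cluster was thus also the highest in the upstream miRNAs. In kidney 6 of the 14 were higher than in the other tissues (beside 10.1% of all miRNAs), with a median log2 fold change of 1.77, and in liver 1 was (beside 8.99%). Between altitudes their median in muscle was -3.19, beside -3.32 for the downstream members. Both medians include low-altitude muscle of goat 3. The value without that library, much smaller in size, is given below for the downstream members only. Their sum lay wholly lower at high altitude in liver, with 2825, 3889 and 3989 CPM against 11287, 5724 and 11512 CPM, and in muscle, with 727, 1230 and 773 CPM against 1982, 2641 and 20229.8 CPM. It lay wholly higher in lung, with 4209, 7276 and 4228 CPM against 3141, 4071 and 3593 CPM. None of the 14 passed between altitudes in the edgeR fit of a tissue. The ratio of the downstream to the upstream sum was 0.457 ± 0.192 in kidney and 1.27 ± 0.768 in muscle (SD, n = 6). In muscle it was 2.56 in low-altitude goat 3 and 0.628 to 1.86 in the other libraries. Of 5 miRNA names from other imprinted loci 3 were found, with 7 mature forms led by miR-335-5p, and their sum in low-altitude muscle of goat 3 was 135 CPM, against 27.9 to 121 CPM in the other muscles. Of these 7, 3 were higher in liver (beside 8.99% of all miRNAs) and 2 in muscle (9.63%), and 2 were lower in spleen (4.10%), 1 in heart (3.52%) and 1 in lung (3.52%).

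The comparison of altitudes within each tissue asked which members differ between the goat populations. With edgeR in each tissue and the thresholds above, 1 member passed in muscle, beside 0.0719% of all miRNAs, and 0 in heart, kidney, liver and lung, beside 0%, and in spleen, beside 0.144%. At an unadjusted p under 0.05 muscle had 28 members (beside 6.18% of all miRNAs), heart 6 (6.40%), lung 6 (4.74%), kidney 5 (4.60%), liver 3 (4.24%) and spleen 3 (5.75%). DESeq2 placed 6 members past the thresholds in muscle (beside 2.23% of all miRNAs), 3 in liver (2.23%), and 2 each in heart (2.59%), kidney (2.08%), lung (1.51%) and spleen (2.59%). The member that passed in muscle was miR-409-5p. In 1 edgeR fit over all 12 groups, which shares the spread between tissues, 21 members passed as lower in muscle, beside 2.16% of all miRNAs, but 1, miR-409-5p, without low-altitude muscle of goat 3 (beside 0.144%). That fit also gave miR-409-5p as lower and miR-376b-3p as higher in kidney (beside 0.144% in both directions together, as for the following), and miR-409-5p in heart (beside 0.144%), liver (0.503%) and spleen (0.359%). In lung it gave 0 (0.288%), with 6 at an unadjusted p under 0.05 (beside 6.18% of all miRNAs). Leaving out a library moved the number at the unadjusted p to 3 in heart (high goat 1 or low goat 2, beside 3.88% of all miRNAs for each), 3 in kidney (high goat 3 or low goat 3, beside 3.38% and 4.82%) and 17 or 3 in lung (high goat 3 or low goat 2, beside 5.68% and 2.88%). In muscle it was 13 without high goat 1 or high goat 3 (beside 4.74% and 4.17%) and 8 without low goat 3 (4.39%), and in spleen 6 without high goat 1 (5.61%).

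miR-409-5p lay lower at high altitude, without overlap, in every tissue but lung. In muscle it had 1.46, 1.18 and 1.64 CPM at high and 129, 114 and 133 CPM at low altitude. In heart it had 4.20, 2.26 and 4.16 CPM at high and 103, 142 and 20.1 CPM at low altitude. In kidney it had 17.2, 12.4 and 24.3 CPM at high and 859, 526 and 133 CPM at low altitude. The 3 high values lay below the 3 low values in each of these tissues, and low goat 3 came nearest in heart and in kidney. In liver it had 2.54, 9.23 and 8.95 CPM at high and 366, 275 and 378 CPM at low altitude, and in spleen 0.684, 4.45 and 1.999 CPM at high and 50.8, 77.8 and 83.2 CPM at low altitude. In lung it had 9.94, 5.61 and 11.5 CPM at high and 7.85, 6.64 and 7.85 CPM at low altitude. The lung groups overlapped, and the 3 low-altitude lungs lay below every other low-altitude library.

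The log2 fold change of miR-409-5p in muscle had an SE of 0.557 and an edgeR adjusted p of 0.0178. Its call depended on the libraries: without low goat 3 the adjusted p was 0.0504 (range over all alternatives 3.25e-38 to 0.381), and 0 members passed when high goat 1, high goat 3, low goat 1 or low goat 3 was left out, with 13, 13, 33 and 8 members at an unadjusted p under 0.05, beside 4.17% to 5.46% of all miRNAs. The log2 fold change itself stayed between -6.46 and -6.00. In edgeR the log2 fold change was -5.53 in liver (SE 0.705, adjusted p = 0.0813), -5.03 in spleen (SE 0.787, adjusted p = 0.0874), -4.86 in heart (SE 0.847, adjusted p = 0.237) and -5.01 in kidney (SE 1.16, adjusted p = 0.630), lower in 3 of 3 high-altitude goats in each. In the fit over 12 groups it passed in all 4, with an adjusted p of 0.00304 in liver (range over all alternatives 1.05e-14 to 0.491), 0.00570 in spleen (8.72e-10 to 0.590), 0.00691 in heart (2.06e-08 to 0.771) and 0.00892 in kidney (0.00128 to 1). The lowest of each range was from DESeq2. In lung the log2 fold change was 0.62 (SE 0.653).

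The sequence of miR-409-5p, as the study lists it for its PCR assay, is shown because this arm is the member that passed in muscle and in the counts summed per goat. Capitals mark the seed, bases 2 to 8, and T stands for U.
miR-409-5p: aGGTTACCcgagcaactttgcat

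With the counts of each goat summed over its 6 tissues, 1 member passed in edgeR, beside 0.216% of all miRNAs, and it was miR-409-5p. It had 6.68 ± 1.61 CPM at high and 181 ± 61.8 CPM at low altitude (SD, n = 3), and the log2 fold change was -4.77 (SE 0.527, edgeR adjusted p = 0.0288), lower in 3 of 3 high-altitude goats. The call was lost when high goat 1, 2 or 3 or low goat 1 or 2 was left out: 0 members passed then in edgeR, with 3, 14, 3, 13 and 9 at an unadjusted p under 0.05 (beside 7.48% to 10.9% of all miRNAs), and without low goat 3 it was kept, with 2 (beside 7.48%). Over these 6 fits miR-409-5p kept a log2 fold change between -5.07 and -4.35, and its highest adjusted p was 0.0920 in edgeR. At an unadjusted p under 0.05 there were 8 members over all goats, beside 10.6% of all miRNAs, and DESeq2 gave 3, beside 3.67%. The median log2 fold change of the members was -0.71, beside -0.09 for all miRNAs, and -0.03 without low goat 3. Every high-altitude goat was below every low-altitude goat in 6 members, beside 7.98% of all miRNAs, and above in 1, beside 5.82%. Among these were conserve-miR-496-5p (0.582 ± 0.393 against 4.86 ± 2.66 CPM) and conserve-miR-3957-3p (1.38 ± 0.798 against 3.86 ± 1.35 CPM), neither of which passed.

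In muscle most members lay lower at high altitude, but by an amount that turned on 1 library. In 28 members, or 31.1%, every high-altitude value lay below every low-altitude value, beside 5.18% of all miRNAs, and in 0 above, beside 3.24%. The median log2 fold change was -3.32, beside 0 for all miRNAs, and -2.97 with the 30 members at 0 throughout a group set at their bound. Without low goat 3 it was -0.63, with 8 members in place of 28 at an unadjusted p under 0.05. With either high goat 1 or high goat 3 left out there were 13. High-altitude muscles of goats 1 and 3 stood low: 19 and 17 of the 24 members with a mean of at least 10 CPM lay more than 1 below the middle of the tissue on the log2 scale, with medians of -1.56 and -1.34, beside -0.06 and 0 for the 277 other miRNAs. The smooth muscle list had 55425, 23134 and 51272 CPM in the high-altitude and 17681, 21418 and 22452 CPM in the low-altitude muscles, and the skeletal muscle list 475529, 492116 and 361840 CPM against 515386, 553994 and 511286 CPM. The cardiomyocyte list had 4836, 1865 and 4667 CPM against 2177, 1445 and 1819 CPM, and the epithelial list 20.96, 76.6 and 29.0 CPM against 14.1, 5.32 and 15.6 CPM. Whether these differences bear on the cluster was not tested.

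miR-411a-5p had 309, 933 and 451 CPM in the high-altitude muscles and 647, 903 and 15762 CPM in the low-altitude muscles. The groups overlapped, and the log2 fold change went from -3.14 to -0.61 without low goat 3. miR-655-3p had 2.22, 11.1 and 4.46 CPM at high and 23.6, 20.8 and 968 CPM at low altitude. It did not overlap, and its log2 fold change went from -5.64 to -2.08. miR-382-5p, with 0.416, 0.0784 and 0.783 CPM at high and 1.72, 2.07 and 66.1 CPM at low altitude, went from -5.26 to -2.06. miR-376b-3p had 0.555, 0.862 and 0.470 CPM at high and 2.29, 1.99 and 182 CPM at low altitude, and its log2 fold change was -1.82 without low goat 3. miR-154a-3p had 0 counts in the high-altitude muscles and 2, 3 and 190 in the low-altitude muscles. That was at least 23.2-fold lower at high altitude against 3 counts per library, but without low goat 3 both groups were at or under that floor. Of these members none passed in the edgeR fit of muscle alone, with an adjusted p from 0.675 to 0.742. In the fit over 12 groups all 5 passed, with an adjusted p from 0.00352 for miR-655-3p to 0.0312 for miR-376b-3p (the ranges over all alternatives reach 1), and without low-altitude muscle of goat 3 that fit gave 0.296 for miR-655-3p and more for the other 4.

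Heart had 11 members, or 12.2%, with every high-altitude value above every low-altitude value, beside 8.05% of all miRNAs, and 7 below, beside 4.03%. Over the TMM library size it was 6 above (beside 3.95%) and 10 below (beside 8.05%). In the same hearts the smooth muscle list had 181237, 116128 and 189879 CPM at high and 69412, 76287 and 59273 CPM at low altitude, and the leukocyte list 3460, 1909 and 2767 CPM against 1893, 1846 and 1495 CPM. The kidney tubule list (200, 157 and 130 CPM against 94.9, 92.5 and 110 CPM), the epithelial list (50.9, 13.0 and 49.5 CPM against 11.4, 12.5 and 7.69 CPM) and the ciliated cell list (7.19, 17.5 and 6.88 CPM against 3.44, 1.58 and 5.10 CPM) also lay wholly higher. The other imprinted loci lay wholly lower, with 33.8, 51.9 and 35.4 CPM against 67.1, 81.6 and 158 CPM. Whether these differences bear on the cluster was not tested. miR-410-3p was among the higher ones, with the values given above (log2 fold change 1.08, SE 0.321, edgeR adjusted p = 0.521). miR-411a-5p had 1581, 1187 and 1589.7 CPM at high and 799, 874 and 1126 CPM at low altitude in heart, and miR-381-3p 45.7, 26.5 and 34.3 CPM at high and 14.7, 20.9 and 23.6 CPM at low altitude. Both lay above every low-altitude heart in CPM and over the TMM size made within heart, which the fit uses, but overlapped over the TMM library size of the 36 libraries, where high goat 2 had 1347 against up to 1537.4 for miR-411a-5p and 30.0 against up to 33.5 for miR-381-3p. The edgeR log2 fold changes were 0.47 and 0.69, and neither passed. miR-544-5p lay lower, with 9, 9 and 2 counts at high and 18, 20 and 23 at low altitude (log2 fold change -1.79, edgeR adjusted p = 0.748).

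In kidney 0 members lay wholly higher (beside 1.73% of all miRNAs) and 4 wholly lower at high altitude (beside 3.67%), and over the TMM library size 1 (beside 4.03%) and 9 (beside 4.89%). The skeletal muscle list had 1507, 1323 and 2084 CPM in the high-altitude and 181, 571 and 547 CPM in the low-altitude kidneys, and the cardiomyocyte list 72.6, 62.8 and 170 CPM against 4.05, 31.95 and 10.6 CPM, and whether they bear on the cluster was not tested. Next to miR-409-5p, conserve-miR-496-5p had 1.497, 4.25 and 1.795 CPM at high and 12.6, 7.90 and 36.2 CPM at low altitude (log2 fold change -2.90, SE 0.618, edgeR adjusted p = 0.630, range over all alternatives 0.00128 to 1, the lowest from DESeq2). The remaining members at these places were miR-379-3p and miR-154a-3p, named here after their values were seen, with log2 fold changes of -0.69 and -0.74, and both overlapped over the TMM library size. miR-379-3p had 423, 0 and 517 counts at high altitude in kidney, so that 1 library was at 0.

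In liver 2 members lay wholly higher (beside 2.37% of all miRNAs) and 5 wholly lower (beside 5.97%), and over the TMM library size 6 (beside 3.95%) and 4 (beside 4.96%). High-altitude liver of goat 1 stood low, with 14 of the 24 members more than 1 below the middle of the tissue (median -1.08, beside -0.12 for the 277 other miRNAs). The erythroid list had 343, 6388 and 4285 CPM in the high-altitude and 9104, 9959 and 8658 CPM in the low-altitude livers, and the cardiomyocyte list 288, 228 and 188 CPM against 18.5, 146 and 19.9 CPM. In high goat 1 the leukocyte list had 22767 CPM, against 6189 to 12732 CPM in the other livers, the mesenchyme list 15419 CPM, against 5484 to 11885 CPM, and the epithelial list 532 CPM, against 911 to 1749 CPM. Whether these differences bear on the cluster was not tested. miR-495-3p had 3.69, 3.69 and 1.96 CPM in the high-altitude livers and 0 in the low-altitude livers, or 29, 34 and 18 counts against 0. It was at least 8.31-fold higher at high altitude, against a floor of 3 counts per library, and its edgeR adjusted p was 0.354 (range over all alternatives 1.98e-05 to 1, the lowest from DESeq2). The zeros were particular to liver among low-altitude tissues except for 1 kidney: the low-altitude kidneys had 0, 1360 and 892 counts. In muscle miR-495-3p had 1.04, 2.35 and 2.58 CPM at high and 6.21, 7.76 and 146 CPM at low altitude. There it lay lower at high altitude without overlap (log2 fold change -1.89 without low goat 3), the opposite direction to liver, and the interaction of tissue and altitude had an edgeR adjusted p of 0.274.

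The sequence of miR-495-3p, listed by the study for the same purpose, is shown because it was found in 1 liver group only; capitals mark the seed, bases 2 to 8.
miR-495-3p: aAACAAACatggtgcacttct

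In lung 3 members lay wholly higher (beside 2.30% of all miRNAs) and 2 wholly lower (beside 5.97%), and over the TMM library size 11 (beside 3.81%) and 2 (beside 4.53%). The smooth muscle list had 150251, 154842 and 253929 CPM in the high-altitude and 291233, 302558 and 265108 CPM in the low-altitude lungs. Wholly higher were the cardiomyocyte list (38.1, 20.3 and 105 CPM against 5.37, 18.4 and 10.5 CPM), miR-122 (72.7, 19.7 and 130 CPM against 13.0, 10.05 and 5.69 CPM) and the kidney tubule list (220, 283 and 164 CPM against 111, 146 and 136 CPM). Whether these differences bear on the cluster was not tested. The median log2 fold change of the members was 0.56, or 0.26 with the 22 members at 0 throughout a group set at their bound, beside 0 for all miRNAs, and it was 0 without high goat 2. miR-379-5p, with 1331, 674 and 1263 CPM at high against 258, 338 and 186 CPM at low altitude, had a log2 fold change of 2.39 (SE 0.583, edgeR adjusted p = 0.832, range over all alternatives 0.0142 to 1, the lowest from DESeq2). It was the same in direction when any lung library was left out, from 2.13 to 2.77. miR-411a-3p had 21.8, 156 and 17.5 CPM at high and 14.6, 7.93 and 8.15 CPM at low altitude, and its log2 fold change of 2.498 was 1.36 without high goat 2 (it passed in DESeq2 only). conserve-miR-496-5p had 0, 6 and 0 counts at high and 12, 99 and 23 at low altitude (log2 fold change -4.53, edgeR adjusted p = 0.832), and conserve-miR-496-3p 0, 15 and 0 against 32, 54 and 43 (log2 fold change -3.33). Without high goat 2 the high-altitude lungs were at 0 in both, at least 13.9-fold and 13.8-fold lower against 3 counts per library. Both conserve entries of this hairpin thus lay below the low-altitude lungs in each high-altitude lung. The goat entry of the 3p arm, miR-496-3p, named here after its values were seen, did not. It had 0, 10 and 0 counts at high and 0, 0 and 7 at low altitude.

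In spleen 4 members lay wholly higher (beside 4.46% of all miRNAs) and 6 wholly lower (beside 5.54%), of which 2 and 1 had at most 3 counts in a library. The smooth muscle list had 357292, 402152 and 369333 CPM in the high-altitude and 415577, 568728 and 454538 CPM in the low-altitude spleens, and the ciliated cell list 38.0, 47.0 and 41.2 CPM against 16.1, 14.8 and 18.2 CPM, and whether they bear on the cluster was not tested. miR-411a-5p had 982, 2310.5 and 1813 CPM at high and 799.6, 228 and 472 CPM at low altitude. All 3 high values lay above the low values, and the log2 fold change was 1.72 (SE 0.494, edgeR adjusted p = 0.729, range over all alternatives 0.0296 to 1, the lowest from DESeq2). miR-379-5p went the other way, below in all 3, with a log2 fold change of -1.38. conserve-miR-3957-3p had 0, 13 and 7 counts at high and 16, 20 and 21 at low altitude (log2 fold change -1.76, edgeR adjusted p = 0.751), and its log2 fold change was -2.74 without high goat 2.

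Across the 6 tissues and in CPM, 56 of the 90 members were wholly lower at high altitude in 0 tissues (62.2%, beside 81.5% of all miRNAs), 23 in 1 (25.6%, beside 12.2%) and 11 in 2 or more (12.2%, beside 6.25%). miR-409-5p was so in 5 tissues, conserve-miR-3957-3p in 4, and conserve-miR-496-5p and miR-154a-3p in 3, so that 4.44% of the members were so in 3 or more, beside 3.24% of all miRNAs. On the higher side 74 members were in 0 tissues (82.2%, beside 84.5%), 4 in 2 or more (4.44%, beside 4.03%) and 0 in 3 or more (beside 1.51%). Of the 4 lower members named, only miR-409-5p passed in the main edgeR fit of a tissue. Over the TMM library size miR-409-5p and conserve-miR-496-5p had the same numbers of tissues, conserve-miR-3957-3p had 5 and miR-154a-3p 2.

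Whether the altitude difference itself differed between tissues was tested by the interaction of tissue and altitude in the fit over 12 groups, with 5 degrees of freedom. It passed for 2 members, beside 0.216% of all miRNAs: miR-376b-3p and miR-409-5p, both with an edgeR adjusted p of 0.0339 (n = 36 libraries). miR-409-5p lay lower at high altitude in 5 tissues and not in lung. miR-376b-3p had reads in kidney at high altitude only, while in heart it lay lower at high altitude, with 1.94, 3.39 and 3.14 CPM against 5.90, 15.0 and 3.48 CPM. With the goat as a block 1 member passed, and without low-altitude muscle of goat 3 also 1 (beside 0.144% of all miRNAs for each). Leaving out high goat 1 or high goat 2 gave 1 (beside 0.144% and 0.719%). Leaving out any other goat gave 0 (beside 0% to 0.360%), with 14, 23, 23 and 4 members at an unadjusted p under 0.05 without high goat 3 and low goats 1, 2 and 3 (beside 3.16% to 6.11%). DESeq2 was not run for this test.

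Both arms were listed for 34 hairpins of the cluster. The 5p arm had more counts in 11 of them and the 3p arm in 23. The arms were often very unequal: the 5p share of the counts was 97.5% in miR-411a, 0.182% in miR-381, 0.0617% in miR-3958 and 0.138% in miR-380. Intermediate shares were found in miR-409 (44.8%), miR-3959 (76.5%), miR-379 (90.6%) and miR-369 (10.7%). Since the share is a ratio within a library, it does not depend on scaling.

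The 5p share of miR-409 lay lower at high altitude, without overlap, in every tissue but lung. In heart it was 8.72%, 3.44% and 4.37% at high and 71.9%, 81.7% and 39.2% at low altitude, and in kidney 7.63%, 2.18% and 7.88% against 83.8%, 69.5% and 41.0%. In liver it was 2.59%, 1.52% and 6.90% against 60.4%, 75.7% and 71.3%. In muscle it was 15.2%, 4.52% and 11.6% against 88.6%, 86.6% and 42.6%, and in spleen 0.965%, 5.24% and 2.35% against 49.3%, 71.7% and 70.7%. The groups did not overlap in these 5 tissues. In lung the shares were 12.7%, 2.17% and 26.1% at high and 13.3%, 15.5% and 11.5% at low altitude, and they overlapped. Low goat 3 had the lowest share of its group in heart, kidney and muscle, and its muscle value came with 2223 counts of the 3p arm, against 204 and 240 in the other low-altitude muscles. Wilson 95% intervals of these shares were at most 5.99 points to either side.

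The mean difference of the 5p share of miR-409, high minus low, was -65.5 points for liver, -62.1 for muscle, -61.0 for spleen, -58.9 for kidney and -58.8 for heart, and 0.259 for lung. In the 5 tissues the exact two-sided permutation test gave p = 0.1, the smallest that 3 against 3 libraries allow, and 1 in lung. Adjusted over the 48 pairs of 8 hairpins and 6 tissues it was 0.32. The sign in lung changed when high goat 3 (-5.97) or low goat 3 (-0.695) was left out.

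**Figure D3:**
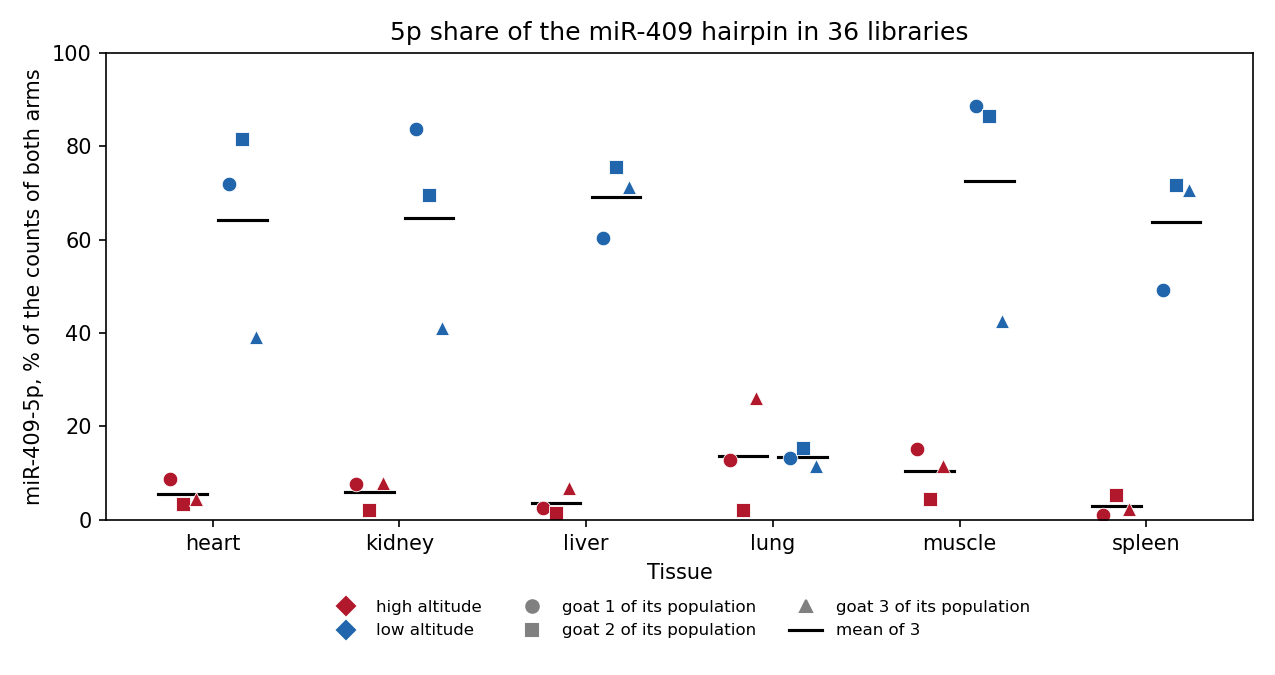
Share of miR-409-5p in the counts of both arms of the hairpin in each library, in percent, by tissue and altitude; each point is a library, its shape the goat of its population, and each bar the mean of 3. Outside lung, the high-altitude libraries lie at or under 15.2% and the low-altitude libraries at or above 39.2%.

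Among the 48 pairs of hairpin and tissue, the high and low libraries did not overlap in 15, of which 5 were those of miR-409 and 10 those of other hairpins. Over all hairpins of the cluster with at least 20 counts in each library of a tissue it was 27 of 98 pairs, or 27.6%, beside 24.9% of 1064 pairs over the whole table. In the other hairpins most differences were small in points. miR-379 was an exception. Its 5p share in spleen was 17.9%, 30.5% and 21.7% at high and 45.1%, 71.8% and 64.1% at low altitude, and in liver 100%, 100% and 92.5% against 71.3%, 82.2% and 70.6% (exact two-sided permutation, p = 0.1 each, adjusted p = 0.32). The directions were opposite in these tissues, and in 2 high-altitude livers the 3p arm had 0 counts. The 5p share of miR-379 also differed in range between tissues, with the 5p arm at 83.9% to 98.9% in lung and 17.9% to 71.8% in spleen. In high-altitude muscle of goat 2 the 5p share of miR-379 was 4.65%, with 4 counts of 86.

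miR-369 had a 5p share of 14.2%, 10.5% and 15.6% in high-altitude heart and 29.1%, 24.9% and 20.9% in low-altitude heart. In liver it was 6.93%, 6.40% and 5.16% against 13.7%, 9.33% and 9.46%. The groups did not overlap in either tissue, and the mean differences were -11.5 and -4.66 points (exact two-sided permutation, p = 0.1 each, adjusted p = 0.32). miR-3959 ranged from 36.1% to 99.2% over the 36 libraries without a common order of the altitudes. In kidney its 5p share was 51.1%, 94.2% and 44.7% at high and 46.0%, 73.5% and 88.6% at low altitude, with the high shares in the same libraries as the high cluster shares. In muscle and spleen it was at least 72.4%, and in muscle it lay at 93.5%, 95.8% and 95.9% in the low-altitude libraries.

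The 6 tissues of a goat come from the same animal, so agreement between tissues does not add goats. The counts do not show which allele a member was transcribed from.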

How the data were processed

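Small RNA libraries from 6 tissues of 6 goats were analysed, 36 in all. The deposited values are counts per mature miRNA and library, which the authors made with base calling in CASAVA 1.8, mapping to the goat genome with Bowtie at 0 mismatches, so that reads with any difference were not counted, and detection with miRDeep2 against miRBase release 21. A miRNA stayed in the authors' table when 1 library or more held 3 or more of its reads. Samples were grouped by tissue and altitude, and all 36 libraries and 1391 miRNAs were used.

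Counts were scaled to CPM (a library total of 1000000) for description. Altitudes were compared within each tissue, and with counts summed per goat, in edgeR 4.0.16 (TMM, quasi-likelihood F-test, R 4.3.3). Each tissue was compared with the other 5, and the interaction of tissue and altitude tested, in 1 fit over 12 groups. p was adjusted by Benjamini-Hochberg over all 1391 miRNAs, and a member passed at an adjusted p under 0.05 and a log2 fold change of at least 1.5 in size (the interaction by adjusted p alone). The share of the 5p arm was compared for the 8 hairpins with the most counts, with at least 20 counts over both arms, by exact permutation of 3 against 3 libraries. Wilson 95% intervals and the other tables were made with Python 3.11.15, NumPy 2.4.6, SciPy 1.17.1, pandas 2.3.3 and matplotlib 3.10.9. The fits were tested on simulated data.

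Alternatives were other scalings, DESeq2 1.42.0, a filter on low counts, no minimum fold change, 1 fit over all groups, blocks, arms and copies summed, and each replicate left out. The 6 tissues of a goat come from the same animal, so the goat was tried as a block between tissues. Same-numbered goats of the populations are different animals. In heart all 3 same-numbered pairs of libraries correlated over 308 miRNAs (0.353 to 0.513, mean 0.438), above the limit of 0.1 set beforehand. In the other tissues at least 1 pair did not, and the mean in kidney was -0.281. With 3 libraries in a group the numbers can match in this way by chance, so no pairing of goats was taken from it.

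Members named are the 10 most abundant, those that passed between altitudes, in each tissue the 2 largest differences between altitudes without overlap (mean of at least 1 CPM) and the 2 largest over the other tissues (mean of at least 10 CPM), 8 that the study names, and both arms of the 8 hairpins. The members and the lists of marker miRNAs were chosen with earlier results of these data known.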

Additional observations from a re-analysis of the deposited data

Results flagged for a closer look

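In each tissue the highest or lowest of the 6 libraries was compared with the rest for 12 measures: the cluster share, the sum of the upstream miRNAs of the domain and the 10 most abundant members. A library lay far from the others in 25 of 72 groups. The limit used is passed in about 1 of 20 groups when values are independent and normally spread. The 72 groups here overlap, since the cluster share includes the 10 members and the same libraries recur. The 25 can therefore not be set against that rate. Low-altitude muscle of goat 3 accounted for 11 of the 12 muscle groups and other libraries for 14.

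Low-altitude muscle of goat 3 lay far above the other muscles in the cluster share (5.18%), the upstream sum (20230 CPM), miR-411a-5p (15762 CPM), miR-381-3p (25949 CPM), miR-379-5p (959.14 CPM) and miR-3958-3p (2341.1 CPM). It did so too in miR-3959-5p (494.09 CPM), miR-409-3p (179.85 CPM), miR-369-3p (708.49 CPM), miR-380-3p (638.99 CPM) and miR-410-3p (765.37 CPM). High-altitude lung of goat 2 lay far above the other lungs in the cluster share (1.05%), the upstream sum (7275.9 CPM), miR-411a-5p (7269.1 CPM), miR-381-3p (132.05 CPM) and miR-3958-3p (294.67 CPM). It did so too in miR-3959-5p (306.96 CPM), miR-409-3p (252.68 CPM), miR-369-3p (216.99 CPM), miR-380-3p (303.86 CPM) and miR-410-3p (107.86 CPM).

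Single values far above the rest of their tissue were miR-381-3p in high-altitude spleen of goat 2 (57.403 CPM), miR-409-3p in high-altitude kidney of goat 2 (558.38 CPM) and miR-409-3p (599.39 CPM) and miR-369-3p (301.98 CPM) in high-altitude liver of goat 2. The causes were not tested.

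The altitude difference differed between tissues by the interaction test for miR-409-5p (adjusted p = 0.0339) and miR-376b-3p (adjusted p = 0.0339).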

How the results depend on the processing

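Alternatives gave 846 values for 88 results. Of these 723 were counted as the same. They were 442 log2 fold changes with the same direction and side of the threshold, and 149 counts of members equal to or within 1.5-fold of the reported count. The others were 64 cluster shares and 68 5p shares that moved by less than the spread between replicates. A count could stay the same while its members changed. In muscle over the other tissues, 12 members became 10 without low-altitude muscle of goat 3, and 4 passed in both. Of the remaining values, 64 no longer passed or gave a smaller count, 48 passed or gave a larger count, 8 moved by more than the spread between replicates and 3 changed sign. Of 40 log2 fold changes, 39 never changed sign. The exception was conserve-miR-323-3p in liver over the other tissues, from -0.69 without high goat 1 to 6.46 (reported value 4.97). The 5p share of miR-409 in lung, high minus low, ran from -5.97 to 6.004 (reported 0.259), with -0.695 without low goat 3.

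Members that passed between altitudes in DESeq2 were 6 in muscle, 3 in liver, 3 per goat, and 2 each for heart, kidney, lung and spleen. With 1 fit over 12 groups they were 1 in heart (beside 0.144% of all miRNAs), 2 in kidney (0.144%), 1 in liver (0.503%), 21 in muscle (2.44%) and 1 in spleen (0.359%), and with low counts filtered 1 in liver (1.32%) and 1 in spleen (1.92%). That fit without low-altitude muscle of goat 3, chosen after seeing the data, gave 1 in muscle (0.144%). The TMM library sizes for members without overlap between altitudes were chosen in the same way. The replicate block, which pairs same-numbered but different goats, gave 0 in muscle and 0 per goat in edgeR. At an unadjusted p under 0.05 it gave 10 and 5 (beside 3.81% and 7.55% of all miRNAs). In heart, where each same-numbered pair correlated and each of the 6 libraries correlated best with its own number, the block gave 0, as without it. At the unadjusted p it gave 4 (beside 5.68% of all miRNAs), and 6 were found without it (beside 6.40%). The mean correlation was 0.21 for spleen, with the own number the best match of 4 of 6 libraries, 0.0483 for lung (3 of 6), 0.0274 for liver (2 of 6), 0.00381 for muscle (2 of 6) and -0.281 for kidney (0 of 6). With arms and copies summed, fewer entries were tested, 811 in all and 45 of the cluster. The counts of that setting are therefore out of fewer members than the others and cannot be set directly against them. There were 0 in muscle and 0 per goat (beside 0% of all entries for each). At the unadjusted p there were 21 and 5 (beside 7.275% and 10.36%). The interaction gave 1 (beside 0.3699%). Between tissues there were 1 in heart (beside 11.84%), 26 in kidney (13.07%) and 6 in muscle (14.55%).

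Between tissues, DESeq2 gave 8 in heart. The goat as a block gave 0 in liver (8 at an unadjusted p under 0.05 in edgeR), 3 in lung and 1 in the interaction. Other size factors gave 3 in lung (beside 13.1% of all miRNAs), and library size alone 3 in lung (14.0%) and 6 in spleen (17.0%). With a replicate left out, the counts ran from 0 to 1 in muscle between altitudes, 0 to 1 per goat, 0 to 1 in the interaction, and between tissues 0 to 1 in heart, 2 to 6 in liver, 2 to 5 in lung, 6 to 13 in muscle and 6 to 10 in spleen. Leaving out low-altitude muscle of goat 3 alone was chosen after seeing the data. It gave 2 in heart (beside 10.1% of all miRNAs), 51 in kidney (13.2%), 6 in liver (12.4%) and 5 in lung (13.2%). It also gave 10 in muscle (13.3%), 8 in spleen (14.9%) and 1 in the interaction (0.144%). The 10 in muscle were 2 higher and 8 lower, against 10 higher and 2 lower with that library. The causes were not tested.

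The cluster share moved to 0.237% in low-altitude heart, 0.261% in low-altitude liver and 0.162% in low-altitude lung over the TMM library size. Over the total without the most abundant miRNA it was 0.256% in high-altitude heart, 0.432% in low-altitude liver, 0.349% in low-altitude lung, 0.387% in high-altitude spleen and 0.212% in low-altitude spleen.

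The scaling moved the median of all miRNAs between tissues: with library size alone it went from -0.17 to 0.17 in liver, from -0.31 to -0.02 in spleen, from -0.42 to -0.66 in muscle and from -0.42 to -0.56 in heart, and in DESeq2 it was 0.02 in muscle. A total of 3 counts was 0.208 to 0.422 CPM in a library, so members under that level could not be told from 0.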
